A study of Mus musculus with 12 samples.

Results

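The genes described are 6 inhibitors of cyclin-dependent kinases (Cdkn1a, Cdkn1b, Cdkn1c, Cdkn2a, Cdkn2b and Cdkn2c), the 3 D cyclins (Ccnd1, Ccnd2 and Ccnd3) and Myc, measured in mouse mesenchymal stem/stromal cells (MSCs) with and without the kinase p38α and TGF-β. They were chosen by symbol. All probesets (sets of oligonucleotides that read 1 transcript) annotated to exactly 1 of these symbols were taken, which gave 20 of 45037 probesets and 10 of 17097 genes. Ccnd2 is read by 6 probesets, Ccnd1 by 3, Cdkn1a, Cdkn1b and Ccnd3 by 2 each, and the other 5 genes by 1 each.

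D cyclins bind CDK4 and CDK6, and the complexes phosphorylate the retinoblastoma protein and so let a cell leave G1. The INK4 inhibitors (p16 from Cdkn2a, p15 from Cdkn2b, p18 from Cdkn2c) block CDK4 and CDK6, while the Cip/Kip inhibitors (p21 from Cdkn1a, p27 from Cdkn1b, p57 from Cdkn1c) mainly block CDK2 complexes and help D cyclins to assemble. Myc is a transcription factor that drives growth and represses several of these inhibitors. In epithelial cells TGF-β is known to arrest growth by lowering Myc and raising Cdkn2b and Cdkn1a, whereas mesenchymal cells often do not arrest.

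The donor mice, FVB/NJ in the labels whereas the study's methods name C57BL/6 J for its mice, carried floxed Mapk14 alleles (Mapk14 lox/lox). Their MSCs, the source of all 4 groups, were immortalized with a 3T3 protocol and starved in 0.5% serum. WT MSCs (n = 4 arrays) and p38α∆ MSCs (n = 2), made from the same immortalized cells with 4-hydroxytamoxifen (4-OHT), were left without TGF-β. TGF-β-treated WT MSCs (n = 3) and TGF-β-treated p38α∆ MSCs (n = 3) received 5 ng/ml TGF-β for 20 h. WT MSCs received vehicle in place of 4-OHT, so 4-OHT itself and the deletion cannot be told apart. An immortalized line kept by a 3T3 protocol is itself selected for growth in culture, and immortalization under this protocol is known to go along with loss of the p53 or the Cdkn2a pathway in many mouse lines. The state of these loci in DNA and protein was not measured, while the RNA of Cdkn2a was read and is given below. In a bulk sample fewer cells expressing a gene and less RNA per cell cannot be told apart.

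Arrays carry a number (1, 2, 3, 4 or 4b), and the sources used here give neither its meaning nor whether replicate arrays came from different cultures. The p-values therefore describe array-to-array spread, which may be technical. Of the 4 arrays numbered 1, with 1 in each group, those of WT and TGF-β-treated p38α∆ MSCs stood apart most clearly. In WT MSCs the median absolute difference between array 1 and the others was 0.241 to 0.254 on the log2 scale, against 0.0973 to 0.101 among arrays 3, 4 and 4b. Arrays 4 and 4b differed from each other by about as much as 3 and 4 did, and they were kept as 2 arrays. In TGF-β-treated p38α∆ MSCs array 1 differed by 0.283 and 0.245, against 0.110 between arrays 2 and 4. In TGF-β-treated WT MSCs it differed by 0.282 and 0.183, against 0.147 between arrays 3 and 4. Untreated p38α∆ MSCs have only arrays 1 and 3, which cannot show which of them is apart. Mapk14, the gene of p38α, did not pass between p38α∆ and WT MSCs for any of its 6 probesets, with log2 differences between −0.18 and 0.02 without TGF-β (adjusted p from 0.987 in limma) and between −0.06 and 0.19 with it (adjusted p from 0.601). Their positions relative to the deleted exon are not known here, so they check no label. Of the 6 MSC markers 5 were above the median probeset (4.25). Pdgfrb (mean 9.26) and Itgb1 (11.17) were high, Nt5e (6.31) and Pdgfra (5.87) were lower, and Eng (4.60) was close to the median. Thy1 (3.38) was below the median probeset. All 5 endothelial markers stayed at or below 4.10 on each array, and of the 5 leukocyte markers 4 were below the median probeset, Ptprc never above 2.97, and Cd68 above it (mean 4.41). The adipocyte marker Adipoq was likewise low (3.15), whereas the osteoblast genes Ibsp (8.41) and Bglap (6.89) were above the median probeset and the third, Dmp1, was below it (3.09).

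Cdkn1a, Cdkn1b and Cdkn2b are the members that fell with TGF-β in both genotypes, and the 250 bases before their annotated starts are shown for that reason. The letters come from RefSeq for the build GRCm38.p6, written 5′ to 3′ on the strand of the gene. Capitals mark the GC box GGGCGG, the CCAAT box with those letters and the Smad half-site CAGAC, each searched on both strands together with the E-box CACGTG, the FoxO site GTAAACA and the Smad palindrome GTCTAGAC, and 1 long p53 response element matched with at most 1 mismatch. The search for the p53 element was added after the Cdkn1a sequence had been seen. A motif found on the opposite strand reads as its reverse complement, such as GTCTG for the Smad half-site.
Cdkn1a, first start, chr17:29090729-29090978, plus strand: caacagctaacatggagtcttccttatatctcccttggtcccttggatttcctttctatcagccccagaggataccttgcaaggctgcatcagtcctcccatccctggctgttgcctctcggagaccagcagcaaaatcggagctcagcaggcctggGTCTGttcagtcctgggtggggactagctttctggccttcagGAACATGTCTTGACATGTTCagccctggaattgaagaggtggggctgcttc
Cdkn1a, second start, chr17:29093519-29093768, plus strand: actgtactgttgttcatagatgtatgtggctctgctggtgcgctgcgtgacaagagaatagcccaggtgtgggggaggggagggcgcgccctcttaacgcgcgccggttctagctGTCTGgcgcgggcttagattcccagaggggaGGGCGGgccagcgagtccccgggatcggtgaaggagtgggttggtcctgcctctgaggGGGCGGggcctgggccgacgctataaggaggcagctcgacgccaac
Cdkn1b, chr6:134920151-134920400, plus strand: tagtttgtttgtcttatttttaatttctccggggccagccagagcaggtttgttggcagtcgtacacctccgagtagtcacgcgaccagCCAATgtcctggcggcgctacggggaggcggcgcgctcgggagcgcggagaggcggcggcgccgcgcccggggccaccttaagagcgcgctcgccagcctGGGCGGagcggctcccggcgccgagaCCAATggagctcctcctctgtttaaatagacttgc
Cdkn2b, chr4:89311033-89311282, minus strand: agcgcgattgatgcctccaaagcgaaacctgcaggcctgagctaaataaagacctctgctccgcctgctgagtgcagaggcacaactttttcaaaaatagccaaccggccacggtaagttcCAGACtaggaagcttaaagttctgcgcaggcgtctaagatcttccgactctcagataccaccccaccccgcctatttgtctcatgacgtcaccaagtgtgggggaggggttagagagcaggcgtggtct

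The first Cdkn1a promoter holds the p53 element, which is the run of 20 capitals, and a single Smad half-site. Only 25 of 32851 promoters of the same length (0.0761%) hold such an element, so it is rare in this table. The second Cdkn1a promoter holds 2 GC boxes and 1 Smad half-site, that of Cdkn1b 1 GC box and 2 CCAAT boxes, and that of Cdkn2b 1 Smad half-site and none of the other motifs. The short motifs are common, with GC boxes in 32.7% of all promoters, CCAAT boxes in 33.8% and Smad half-sites in 42.2%. An E-box (6.02% of all promoters) and the Smad palindrome (0.167%) were in none of the 10 promoters matched for Cdkn1a, Cdkn1b, Cdkn2a, Cdkn2b, Cdkn2c and Ccnd3. A FoxO site (3.17%) was in 1 of them, of Ccnd3. The genes lie at chr17:29090979-29100722 (Cdkn1a), chr6:134920401-134925525 (Cdkn1b) and chr4:89306289-89311032 (Cdkn2b), where Cdkn2b neighbours Cdkn2a (chr4:89274473-89294619). A match of letters is a description of these windows and not evidence of binding.

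The effect of TGF-β was read in each genotype. Of the 10 genes 4 fell and none rose in WT MSCs, all of them CDK inhibitors: Cdkn1a, Cdkn1b, Cdkn1c and Cdkn2b. In p38α∆ MSCs 3 fell and none rose, namely Cdkn1a, Cdkn1b and Cdkn2b. The threshold was an adjusted p of 0.05 in limma with all genes tested, at which 5.32% of all genes fell and 9.83% changed in either direction in WT MSCs, and 4.92% fell and 8.32% changed in p38α∆ MSCs. The median log2 fold change of the 10 members was −0.39 in WT and −0.44 in p38α∆ MSCs, against −0.01 and −0.00 over all genes. All 6 CDK inhibitors had a fold change below 0 in both genotypes, with a median of −0.51 in WT and −0.61 in p38α∆ MSCs. For Cdkn2a and Cdkn2c in p38α∆ MSCs this rested on the treated array 1. Without it they were at −0.05 and −0.07, and without all arrays numbered 1 at 0.06 and 0.08. The calls in WT MSCs depended on which probeset stood for a gene. With the probeset of the highest mean, the D cyclins Ccnd1 (adjusted p = 0.00499 in limma) and Ccnd2 (adjusted p = 0.0176) fell as well. Under that rule Cdkn1b no longer passed (−0.48, adjusted p = 0.0812). The calls also depended in part on how the arrays were related to each other. With array numbers ignored, Cdkn1c (adjusted p = 0.0678) and Cdkn2b (adjusted p = 0.135) no longer passed in WT MSCs. Fitted from the 5 p38α∆ arrays alone, where no correlation between same-numbered arrays could be estimated, none of the 3 genes passed (adjusted p = 0.133 for Cdkn1a, 0.194 for Cdkn1b and 0.262 for Cdkn2b). Estimated log2 fold changes take the array numbers into account and differ slightly from differences between group means. The TGF-β comparisons of the 2 genotypes use different arrays, and each comparison of p38α∆ with WT MSCs shares arrays with both.

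Cdkn1a encodes p21, a Cip/Kip inhibitor that p53 and TGF-β signaling both regulate. On the log2 scale WT MSCs read 8.46, 8.47, 8.31 and 8.31 without and 7.70, 7.56 and 8.10 with TGF-β, and p38α∆ MSCs 8.51 and 8.38 without and 7.31, 7.60 and 7.62 with it. Every treated array lay below every untreated array. In WT MSCs the gene fell by 0.58 (SE 0.12, adjusted p = 0.0070 in limma), to 0.668 of the untreated level. In p38α∆ MSCs the level was 2.03-fold lower, with an estimate of −1.02 on the log2 scale (SE 0.15, adjusted p = 0.00146 in limma). Its other probeset, with log2 values from 6.65 to 7.68, also fell in both genotypes, by 0.41 (adjusted p = 0.0283 over all probesets) and 0.85 (adjusted p = 0.00219). The fall was larger in p38α∆ than in WT MSCs by 0.44 (95% confidence interval of the difference −0.86 to −0.01), with an unadjusted p of 0.0446 in limma that did not survive adjustment (adjusted p = 0.902). Within array number 1 the changes were −0.76 in WT and −1.20 in p38α∆ MSCs, and within numbers 3 and 4 of WT MSCs −0.91 and −0.21. Without the arrays numbered 1 the change was −0.53 in WT (adjusted p = 0.0723) and −0.80 in p38α∆ MSCs (adjusted p = 0.0546), neither of which passed.

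Cdkn1b encodes p27, the Cip/Kip inhibitor that quiescent cells accumulate. WT MSCs read 8.52, 8.82, 8.97 and 8.97 without and 7.86, 8.23 and 8.25 with TGF-β, and p38α∆ MSCs 8.81 and 9.11 without and 7.90, 8.27 and 8.18 with it. Untreated and treated arrays did not overlap in either genotype, and with TGF-β the genotypes had means of 8.11 ± 0.22 (SD, n = 3) and 8.12 ± 0.20 (SD, n = 3). Cdkn1b fell by 0.68 in WT (SE 0.09, adjusted p = 0.000347 in limma, 1.60-fold lower). Its fold change in p38α∆ MSCs was −0.91 (SE 0.11, adjusted p = 0.000417 in limma, 1.88-fold lower). Without the arrays numbered 1 the fold changes were −0.67 (adjusted p = 0.00263) and −0.90 (adjusted p = 0.00354), and of the members that fell in the full data Cdkn1b alone still passed there, in both genotypes. Its second probeset was lower by 0.48 in WT MSCs, which did not pass (adjusted p = 0.127 over all probesets), and fell by 0.97 in p38α∆ MSCs (adjusted p = 0.0209). The 2 responses differed by −0.23 (95% confidence interval −0.55 to 0.08, adjusted p = 0.902).

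Cdkn1c encodes p57, an imprinted Cip/Kip inhibitor of differentiating mesenchymal tissues. WT MSCs read 6.73, 6.18, 6.27 and 6.90 without and 5.94, 5.75 and 5.92 with TGF-β, and p38α∆ MSCs 7.26 and 6.94 without and 6.72, 6.67 and 6.64 with it. The lowest level was in TGF-β-treated WT MSCs (5.87 ± 0.10, SD, n = 3), followed by WT (6.52 ± 0.35, n = 4), TGF-β-treated p38α∆ (6.68 ± 0.04, n = 3) and p38α∆ MSCs (7.10 ± 0.22, n = 2). The middle pair overlapped, since all 3 TGF-β-treated p38α∆ arrays lay within the range of the WT arrays, while the other neighbours in this order did not overlap. With TGF-β Cdkn1c fell by 0.64 in WT cells (SE 0.13, adjusted p = 0.00857 in limma, 1.56-fold lower). In p38α∆ MSCs the change was −0.51 (SE 0.17), which did not pass (adjusted p = 0.104), although it did with WT arrays 4 and 4b averaged (−0.51, adjusted p = 0.0227 in limma). A difference between the 2 responses was not detected (0.13, 95% confidence interval −0.35 to 0.61, adjusted p = 0.958). Without the arrays numbered 1 the change in WT MSCs was −0.61 and did not pass (adjusted p = 0.110).

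**Figure D1:**
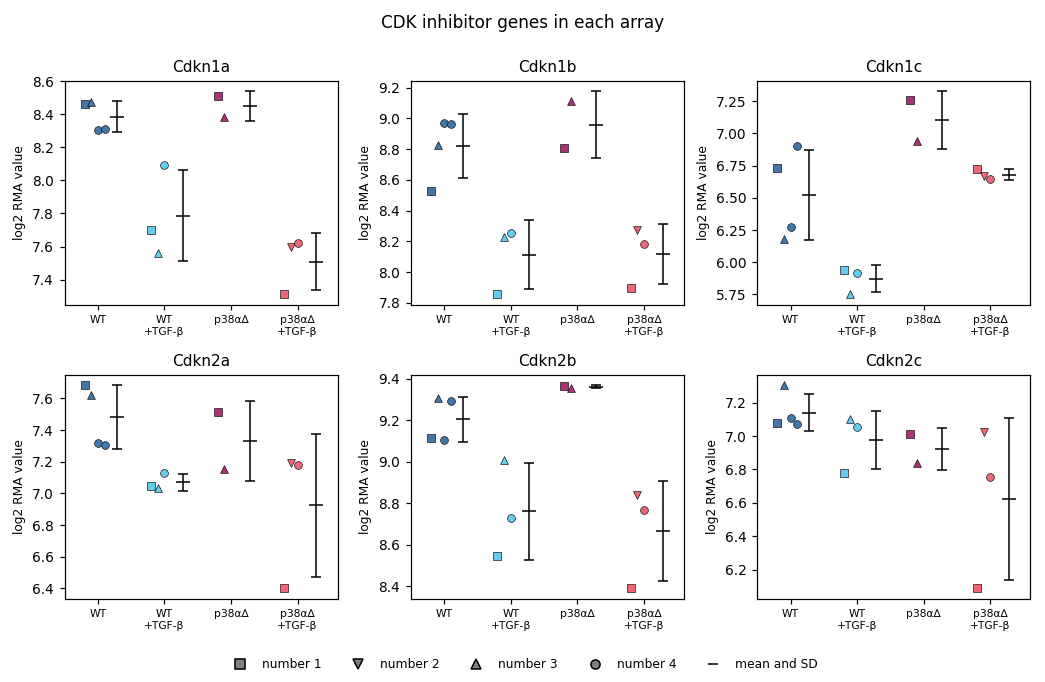
Log2 RMA values of the 6 CDK inhibitor genes (vertical axes, a scale of its own in each panel) in the 4 groups (horizontal axis), with 1 point per array shaped by its number (4b takes the shape of 4) and bars for the mean ± SD. For Cdkn1a, Cdkn1b, Cdkn1c and Cdkn2b each treated array lies below each untreated array of its genotype. For Cdkn1c each p38α∆ array also lies above each WT array of the same treatment.

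Of the INK4 genes, Cdkn2b was the one that changed. It encodes p15, a CDK4 and CDK6 inhibitor and a classic TGF-β target of epithelial cells. WT MSCs read 9.12, 9.31, 9.11 and 9.29 without and 8.55, 9.01 and 8.73 with TGF-β, and p38α∆ MSCs 9.37 and 9.36 without and 8.39, 8.84 and 8.77 with it. Treated arrays were below untreated arrays throughout. Cdkn2b fell by 0.44 in WT cells (SE 0.10, adjusted p = 0.0163 in limma, 1.36-fold lower). In p38α∆ cells it was 1.64-fold lower, at −0.71 (SE 0.13, adjusted p = 0.00569 in limma). The difference between the responses was −0.27 (95% confidence interval −0.64 to 0.10, adjusted p = 0.902). In WT MSCs it no longer passed without WT array 3 (adjusted p = 0.0574), TGF-β-treated WT array 1 (adjusted p = 0.0957) or TGF-β-treated WT array 4 (adjusted p = 0.0944). In p38α∆ MSCs it no longer passed without the p38α∆ array 1 (adjusted p = 0.117). Without all arrays numbered 1 the changes were −0.37 (adjusted p = 0.0718) and −0.52 (adjusted p = 0.0690).

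Cdkn2a encodes p16 and, from another first exon, the p53 activator p19ARF, and its single probeset was not assigned to either transcript here. WT MSCs read 7.68, 7.62, 7.32 and 7.30 without and 7.04, 7.04 and 7.13 with TGF-β, and p38α∆ MSCs 7.51 and 7.15 without and 6.40, 7.19 and 7.18 with it. In WT MSCs the treated arrays lay below the untreated ones, yet the change of −0.41 did not pass (SE 0.17, adjusted p = 0.200 in limma). It did pass when the WT arrays alone were fitted (−0.43, adjusted p = 0.0275). In p38α∆ MSCs the arrays overlapped (−0.49, SE 0.23, adjusted p = 0.270). The lowest of the 12 arrays was TGF-β-treated p38α∆ array 1, and the same array was lowest for Cdkn2c, which encodes p18. For Cdkn2c WT MSCs read 7.08, 7.30, 7.11 and 7.08 without and 6.78, 7.10 and 7.05 with TGF-β, and p38α∆ MSCs 7.01 and 6.84 without and 6.09, 7.03 and 6.76 with it. Treated and untreated arrays overlapped in both genotypes and no change with TGF-β passed (−0.15 with adjusted p = 0.651 in WT, −0.40 with adjusted p = 0.279 in p38α∆ MSCs, in limma).

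The D cyclins were read next, since they are the partners that INK4 proteins displace. Ccnd1, which encodes cyclin D1, is represented by the probeset 1417420_PM_at, for which WT MSCs read 9.77, 10.09, 10.28 and 10.55 without and 9.69, 9.83 and 9.86 with TGF-β, and p38α∆ MSCs 10.31 and 10.71 without and 10.19, 10.32 and 10.18 with it. That probeset overlapped between treated and untreated arrays and did not pass, at −0.35 in WT (SE 0.12, adjusted p = 0.116 in limma) and −0.35 in p38α∆ MSCs (SE 0.16, adjusted p = 0.275). The 2 other Ccnd1 probesets did pass in WT MSCs over all probesets. The 1417419_PM_at probeset fell by 0.52 (adjusted p = 0.00137) and the 1448698_PM_at probeset by 0.44 (adjusted p = 0.00687), and for both of them each treated array lay below each untreated array. In p38α∆ MSCs the 1417419_PM_at probeset fell by 0.38 (adjusted p = 0.0442) and the 1448698_PM_at probeset was at −0.22 (adjusted p = 0.343). For 1417419_PM_at WT MSCs read 7.96, 8.00, 7.94 and 8.25 without and 7.55, 7.47 and 7.51 with TGF-β, and p38α∆ MSCs 8.34 and 8.35 without and 7.98, 7.99 and 7.98 with it. The call for Ccnd1 thus depended on the probeset, and the direction did not.

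Ccnd2, which encodes cyclin D2, was read by 6 probesets, and all 6 had a fold change below 0 in both genotypes, from −0.41 to −0.20 in WT and from −0.33 to −0.16 in p38α∆ MSCs. In WT MSCs 3 of the 6 fell over all probesets, by 0.41 (adjusted p = 0.0175), 0.37 (adjusted p = 0.00776) and 0.37 (adjusted p = 0.0257), and in p38α∆ MSCs none passed. For the probeset that stood for the gene, 1434745_PM_at, WT MSCs read 10.50, 11.08, 10.99 and 11.17 without and 10.45, 10.76 and 10.42 with TGF-β, and p38α∆ MSCs 10.82 and 11.25 without and 10.54, 10.68 and 10.85 with it. WT array 1 lay among the treated arrays. Its change of −0.38 in WT MSCs (SE 0.11) did not pass (adjusted p = 0.0640 in limma), and neither did −0.31 in p38α∆ MSCs (SE 0.15, adjusted p = 0.285). Without WT array 1, Ccnd2 (−0.48, adjusted p = 0.0162) and Ccnd1 (−0.45, adjusted p = 0.0448) both passed in WT MSCs.

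Ccnd3, which encodes cyclin D3, separated the array numbers and not the treatments. WT MSCs read 9.07, 8.56, 8.52 and 8.51 without and 8.98, 8.42 and 8.80 with TGF-β, and p38α∆ MSCs 8.83 and 8.25 without and 9.04, 8.65 and 8.65 with it. The 4 arrays numbered 1 were at 8.83 to 9.07, all above the other 8 arrays (8.25 to 8.80), a difference of 0.44 in the means. No change passed with TGF-β, at 0.05 in WT (95% confidence interval −0.20 to 0.29, adjusted p = 0.873 in limma) and 0.23 in p38α∆ MSCs (−0.09 to 0.55, adjusted p = 0.449). Its second probeset, with a mean of 3.47, was below the median probeset and did not pass either (−0.05 and −0.02).

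Myc stayed between 8.42 and 8.84 on the log2 scale over the 12 arrays. WT MSCs read 8.79, 8.72, 8.74 and 8.65 without and 8.69, 8.42 and 8.57 with TGF-β, and p38α∆ MSCs 8.76 and 8.66 without and 8.72, 8.84 and 8.78 with it. The groups overlapped within each genotype, and neither the change in WT (−0.16, 95% confidence interval −0.31 to −0.01, adjusted p = 0.206 in limma) nor that in p38α∆ MSCs (0.04, −0.16 to 0.24, adjusted p = 0.884) passed. The difference between the 2 responses was 0.20 (95% confidence interval −0.06 to 0.46, adjusted p = 0.902).

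**Figure D2:**
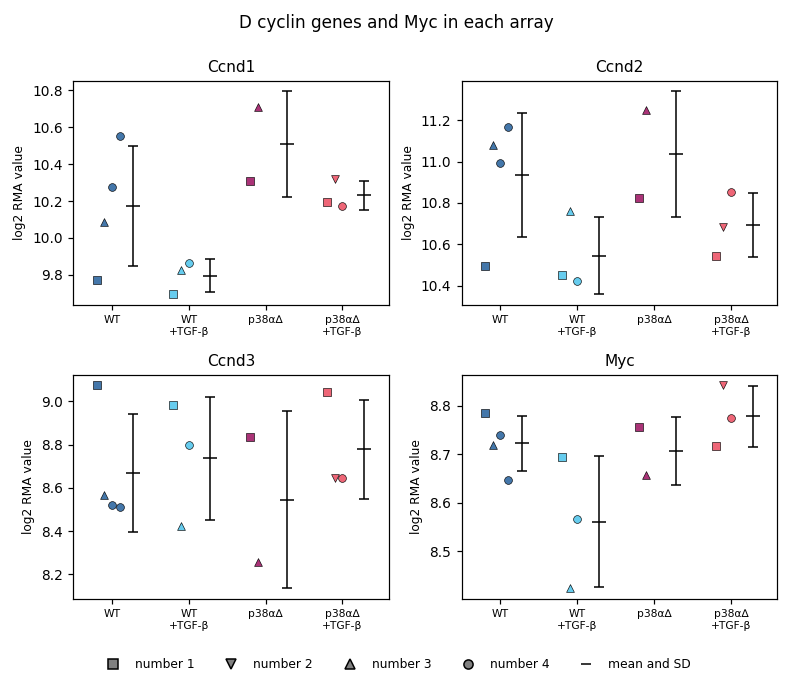
Log2 RMA values of Ccnd1, Ccnd2, Ccnd3 and Myc, drawn as for the CDK inhibitors (vertical axis per panel, 1 point per array, mean and SD of each group). Treated and untreated arrays overlap for each of the 4 genes, and for Ccnd3 the 4 arrays numbered 1 lie above all others.

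**Figure D3:**
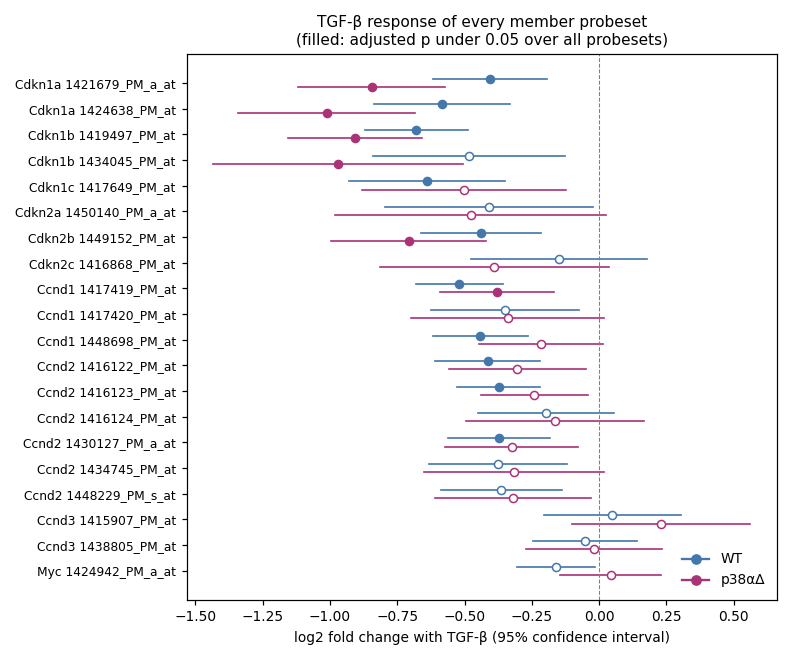
Log2 fold change with TGF-β (horizontal axis) of each of the 20 member probesets (vertical axis) in WT and p38α∆ MSCs, with 95% confidence intervals and filled points where the adjusted p over all probesets was under 0.05. In WT MSCs 10 of 20 passed and in p38α∆ MSCs 6 of 20, all of them below 0, with no filled point for Cdkn2a, Cdkn2c, Ccnd3 or Myc. Of all 45037 probesets 2704 passed in WT and 2347 in p38α∆ MSCs, in either direction. The 20 are not separate observations, since 6 of them read Ccnd2 and 3 read Ccnd1.

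The deletion of p38α was compared first without TGF-β. None of the 10 members passed between p38α∆ and WT MSCs, and 0% of all genes did in limma, while 845 of 17097 genes (4.94%) and 3 of the 10 members had an unadjusted p under 0.05. The largest of the member differences was that of Cdkn1c, at 0.62 (SE 0.16, unadjusted p = 0.00205, adjusted p = 0.969), with both p38α∆ arrays above the 4 WT arrays. Ccnd1 was 0.42 higher (unadjusted p = 0.0146) and Cdkn1b 0.23 higher (unadjusted p = 0.0441). The median over the 10 members was 0.13, against −0.00 over all genes. With 2 p38α∆ arrays the intervals are wide, such as −0.18 to 0.42 for Cdkn1a and −0.59 to 0.32 for Cdkn2a.

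With TGF-β, again none of the 10 members passed between p38α∆ and WT MSCs, where 0.38% of all genes did (54 higher and 11 lower). In limma 1434 of all genes (8.39%) and 5 of the 10 members had an unadjusted p under 0.05. Of these members Cdkn1c, Ccnd1 and Myc were higher, and Cdkn1a and Cdkn2c lower. Cdkn1c came nearest to passing, 0.74 higher in TGF-β-treated p38α∆ MSCs (SE 0.15, adjusted p = 0.0660 in limma, 1.68-fold), with no overlap between the groups. The difference had the same sign at each number that held both genotypes, 0.78 within number 1 and 0.72 within number 4 with TGF-β, and 0.53 within number 1 and 0.76 within number 3 without it. It passed in 2 of 15 alternatives. The 6 treated arrays fitted alone gave 0.77 (adjusted p = 0.0145), and WT arrays 4 and 4b averaged gave 0.75 (adjusted p = 0.0110). Without the arrays numbered 1 it was 0.80 (adjusted p = 0.308), and with array numbers ignored 0.81 (adjusted p = 0.282). Leaving out 1 array at a time gave an adjusted p from 0.139 to 0.297 in limma.

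Under TGF-β, Ccnd1 was likewise higher in p38α∆ than in WT MSCs for each of its 3 probesets, by 0.43, 0.47 and 0.47, with each p38α∆ array above each WT array. None of the 3 passed, with adjusted p = 0.356 over genes for the first and adjusted p = 0.0624 (1417419_PM_at) and 0.0841 (1448698_PM_at) over all probesets for the others, in limma. Cdkn1a was 0.32 lower (SE 0.13, adjusted p = 0.528) and its second probeset 0.45 lower (adjusted p = 0.180 over all probesets). Cdkn2c was at −0.43 (adjusted p = 0.486) and Myc at 0.18 (adjusted p = 0.571), while Cdkn1b (−0.01, 95% confidence interval −0.22 to 0.21) and Ccnd3 (0.00, −0.28 to 0.28) were near 0.

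**Figure D4:**
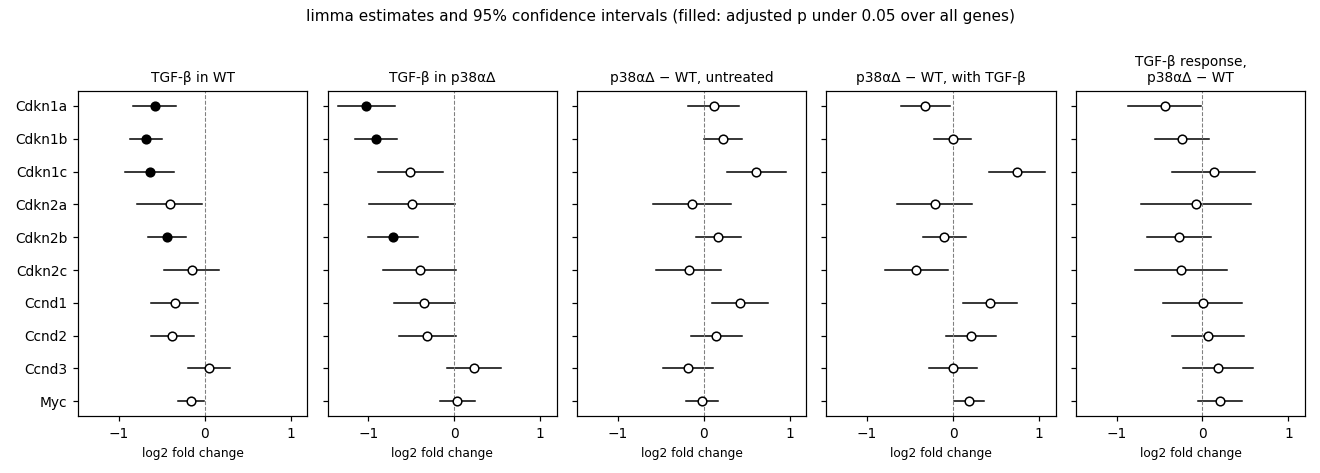
Log2 fold changes of the 10 genes (vertical axis) in the 5 comparisons (panels), each the limma estimate with its 95% confidence interval, filled where the adjusted p over all genes was under 0.05. Filled points appear in the first 2 panels alone, at Cdkn1a, Cdkn1b, Cdkn1c and Cdkn2b in WT and at Cdkn1a, Cdkn1b and Cdkn2b in p38α∆ MSCs, and in the untreated and treated genotype comparisons Cdkn1c lies farthest to the right.

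Whether p38α altered the response to TGF-β was tested as the difference between the 2 responses. No member passed, and 0% of all genes did (919 had an unadjusted p under 0.05 in limma). The only member with an unadjusted p under 0.05 was Cdkn1a. Of the 6 inhibitors 5 had a lower value in p38α∆ MSCs for this difference, from −0.44 for Cdkn1a to −0.08 for Cdkn2a, and the exception was Cdkn1c. For Cdkn2a and Cdkn2c the sign rested on arrays numbered 1. Without the untreated p38α∆ array 1 they were at 0.19 and 0.02, without the treated one at 0.38 and 0.10, and without all arrays numbered 1 at 0.40 and 0.17. For Cdkn1a the difference was −0.21 without the treated WT array 4.

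Other genes of these pathways were read from 8 lists, described by counts alone. With TGF-β 771 of all 17097 genes rose and 910 fell in WT MSCs (9.83% in either direction). In p38α∆ MSCs 581 rose and 842 fell (8.32%). The counts of the lists were not tested against these shares. As a check of the treatment, 6 of 7 measured TGF-β response genes rose in WT and 5 in p38α∆ MSCs, among them Smad7, an inhibitory Smad (1.22 and 1.67), and Tgfbi, a matrix protein (1.36 and 1.48), with Ccn2 the third named gene and Skil, Tnc and, in WT MSCs, Itgb3 the others (these last 3 named after their values were seen). Of 17 measured genes of the CDK, E-cyclin and Rb pathway a single one passed. Rbl2, the Rb relative p130 of quiescent cells, had fold changes of −0.90 in WT cells (adjusted p = 0.00269 in limma) and −1.19 in p38α∆ cells (adjusted p = 0.00303), and so fell in both genotypes. Genes of protein turnover and other CDK inhibitors had 2 of 11 higher in WT and 1 in p38α∆ MSCs. Fbxw7, the ubiquitin ligase subunit that marks Myc and cyclin E for degradation, rose by 1.55 (adjusted p = 0.000145) and 1.85 (adjusted p = 0.000397). Skp2, the subunit that marks p27 for degradation, rose by 0.51 in WT MSCs (adjusted p = 0.0401), with overlapping arrays.

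The level of Myc itself did not pass, and genes around it were read from the lists as well. Of 11 measured Max, Mxd and other network genes 2 fell in WT and 3 in p38α∆ MSCs, and none rose. Mxd4, a Max partner that opposes Myc, fell by 0.93 and 1.01 (adjusted p = 0.000486 and 0.00209 in limma), and Mnt, another such partner, by 0.54 and 0.69 (adjusted p = 0.00226 and 0.00324), while Mxd1 fell by 0.70 in p38α∆ MSCs (adjusted p = 0.0142). Of 19 measured Myc target genes 8 rose and none fell in WT MSCs, and 4 rose and 1 fell in p38α∆ MSCs, with a median of 0.32 in each genotype. Among them were Nolc1 (0.86 in WT) and Rrs1 (1.02 in p38α∆ MSCs), both of ribosome assembly, Polr1b, a subunit of RNA polymerase I (0.39 and 0.53), and Odc1, the polyamine enzyme ornithine decarboxylase (0.60 in p38α∆ MSCs). Rrp9, another gene of ribosome assembly, rose by 0.42 in WT and 0.45 in p38α∆ MSCs. The target that fell in p38α∆ MSCs was Tfrc, the transferrin receptor (−0.73, adjusted p = 0.0495 in limma), named after its value was seen. Between the genotypes none of the 19 passed, with 18 below 0 without TGF-β (median −0.15) and 17 below 0 with it (median −0.14). The medians over all genes were −0.00 and −0.01. All 19 were read on the same arrays, with 2 untreated p38α∆ arrays, so their common sign is not 19 separate observations.

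Of 14 measured genes of the p53 pathway, to which Cdkn1a belongs, 3 rose and 3 fell in WT, and 2 rose and 4 fell in p38α∆ MSCs. Aen, an apoptosis-linked nuclease, rose by 1.20 and 1.23, from untreated means of 3.47 and 3.67 that lie below the median probeset (4.25). Phlda3, an inhibitor of Akt, rose by 0.75 and 1.18, whereas Bbc3, the death protein Puma, fell by 0.55 and 0.53. Sesn1, a stress-induced sestrin, fell by 1.63 in p38α∆ MSCs. Named after their values were seen, the other passing genes were Trp53inp1, a p53-induced nuclear protein (−1.67 and −2.63), the antiproliferative gene Btg2 (−0.73 and −0.66) and Zmat3, an RNA-binding protein (0.30 in WT MSCs). Of 15 measured upstream factors 2 rose and 3 fell in WT, and 2 rose and 2 fell in p38α∆ MSCs. The AP-1 subunit Jun rose by 0.78 and 1.69, Fosl1, another AP-1 subunit, rose by 0.97 in WT MSCs and passed upward in p38α∆ MSCs too (adjusted p = 0.000153 in limma), and Id3, an inhibitor of differentiation factors, fell by 1.31 and 1.33. Its relative Id2 (−1.26 and −1.64) and the Polycomb protein Cbx7, which represses Cdkn2a (−0.84 in WT MSCs), also fell and were named after their values were seen. Jun was the single upstream factor that passed between the genotypes, 0.89 higher in TGF-β-treated p38α∆ MSCs (adjusted p = 0.0110 in limma).

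Proliferation markers moved little in WT MSCs, where 2 of 13 measured rose (Mcm6 by 0.55, a subunit of the replication helicase, and the mitotic kinase Aurka by 0.38, the latter with overlapping arrays) and the median was 0.16. In p38α∆ MSCs 1 of 13 fell, Mcm5, another helicase subunit (0.86, adjusted p = 0.0177 in limma), and the median was −0.35. All 13 were below 0 for p38α∆ against WT with TGF-β (median −0.37) and for the difference between the responses (median −0.41), although none passed in either comparison. These genes are expressed together in dividing cells, so their common sign is not 13 separate observations.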

How the data were processed

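RNA of the 12 MSC samples was amplified, labelled and read on Affymetrix MG-430 PM arrays. The deposited table holds 1 log2 value per probeset and array, which the authors made with RMA. They carry no detection call and no measure of background, and the number of arrays limits the precision. From 45101 rows 64 controls were left out. Of 45037 probesets 28898 were annotated to exactly 1 gene symbol, 551 to several and 15588 to none in the table used. Where a gene had several probesets, the one with the highest median absolute deviation stood for it, which left 17097 genes, and the 20 member probesets were also read from a fit of all 45037.

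Groups were compared with limma 3.58.1 in R 4.3.3, in 1 fit of all 12 arrays with arrays of the same number as a random block (correlation 0.52). The study's methods adjust for scanning batch, which is not given in the sources used here. Pairing was checked from the deviations from group means. These correlated at a median of 0.72 for same-numbered pairs (12 of 14 over 0.1). For the other pairs the median was −0.45, with 12 of 39 over 0.1 and the highest at 0.78. With all arrays numbered 1 left out, the correlation of the block was 0.11. Two-sided p-values were adjusted by Benjamini-Hochberg over the 17097 genes. All members and their probesets were named. Of each of 8 lists written from general knowledge at most the 3 passing genes with the smallest adjusted p were named by rule, others that passed are marked as named after their values were seen, and the counts of the lists were not tested. The members and lists were chosen with earlier results of these data known. The fit was tested on simulated data. Alternatives were another probeset rule, quantile normalization, a filter on low genes, no block or a fixed block, the 2 groups compared alone, WT arrays 4 and 4b averaged, and arrays left out. Promoters were read with Python 3.11.15 from RefSeq (6 of 10 genes matched).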

Additional observations from a re-analysis of the deposited data

Results flagged for a closer look

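In WT MSCs, the only group with 4 arrays, 20 member probesets were screened for an array far from the rest (a gap to its nearest neighbour that is too large a share of the group's range by Dixon's criterion at 95%), and chance alone gives about 1 in 20. For Cdkn2c, WT array 3 lay above the other WT arrays at 7.30, with a gap of 0.868 of the range. For the Ccnd3 probeset that stood for the gene, WT array 1 lay above the others at 9.07, with a gap of 0.907 of the range, and the arrays numbered 1 of the 3 other groups were also above the rest of the arrays for this gene.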

How the results depend on the processing

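Of 800 single-gene values under the alternatives, 731 kept their direction and their side of the threshold, 15 lost the call in the same direction, 10 gained one, and 44 changed sign with neither value passing. No called value reversed. Of the members, 4 fell with TGF-β in WT and 3 in p38α∆ MSCs in the analysis as reported. Without the replicate block on array number 2 fell in WT (Cdkn1a and Cdkn1b) and 3 in p38α∆ MSCs, and over all genes 593 and 625 passed in place of 1681 and 1423. With the number as a fixed block the counts were 4 and 3, and between the genotypes with TGF-β 4 genes passed over all genes in place of 65. With all arrays numbered 1 left out, the counts were 2 in WT (Cdkn1b and Ccnd2) and 1 in p38α∆ MSCs (Cdkn1b). With only the arrays of the 2 groups compared, 0 fell in p38α∆ MSCs, in which 5 arrays entered with no correlation estimated, and 1 member (Cdkn1c) passed between the genotypes with TGF-β, as it also did with WT arrays 4 and 4b averaged (1 member). Leaving out 1 array of the groups compared at a time gave 3 to 6 members in WT and 2 to 3 in p38α∆ MSCs. No member passed between the genotypes without TGF-β, or for the difference of the responses, under any alternative run. Quantile normalization moved the median of all genes by less than 0.01.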

Other observations

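Genes whose log2 values followed a member most closely over the 12 arrays were looked for among the 8538 non-member genes with a mean above the median gene. The arrays share 4 groups and their numbers, so a high Pearson r describes a common pattern over groups and numbers. For Cdkn1a these were Dnajc30 (r = 0.96), Dguok (0.96) and Lrrc14 (0.96), and for Cdkn1b Eya1 (0.98), Ankrd44 (0.98) and 9930012K11Rik (0.98). Cdkn2b was followed most closely by Ddit3 (0.98), Wdsub1 (0.97) and Snn (0.97), and Cdkn1c by Ppt1 (0.94), Mn1 (0.94) and Ly6c1 (0.93).

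Among the members, Cdkn1b and Cdkn2b were the most alike (r = 0.92), followed by Cdkn1a and Cdkn1b (0.85). The 2 INK4 genes lowest in TGF-β-treated p38α∆ array 1, Cdkn2a and Cdkn2c, had an r of 0.84 over the 12 arrays. Ccnd3 ran opposite to Ccnd2 (r = −0.82), and these 2 genes also differed in sign between the arrays numbered 1 and the others, at 0.44 for Ccnd3 and −0.32 for Ccnd2.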
